A study of Homo sapiens with 4 samples.

Results

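The genes described here are 33 genes of mitotic entry, the spindle, chromosome segregation and cytokinesis, taken by symbol from a table of 60302 genes measured in HMLE cells, a human mammary epithelial line that was immortalized in culture. In 2 samples the cells stably carried a lentiviral short hairpin RNA against HNRNPF (hnRNPF knockdown, called knockdown 1 and 2), and in the other 2 a non-specific hairpin (control 1 and 2). The HNRNPF protein binds G-rich RNA and regulates splicing, and the title of the series concerns RNA G-quadruplexes and splicing through it. PolyA-selected RNA was sequenced as stranded paired-end libraries, and the table gives 1 FPKM value per gene and sample (fragments scaled for transcript length and library size). The labels do not say whether samples of a group differ in hairpin or come from separate infections, so a p-value measures only the spread between these samples. HMLE cells were immortalized with telomerase and SV40 early-region genes, whose large T antigen binds the RB family and p53, and this holds for both groups. All 33 symbols had a single row, and all 33 passed the filter on low values (a 4-sample mean of 1 FPKM or more), as did 13110 genes in all. Their means over the samples ranged from 8.98 FPKM for CDC25C to 123 FPKM for CDC20.

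Mitosis begins when CDK1, bound to cyclin A or cyclin B, is freed of inhibitory phosphate by CDC25 phosphatases. Motors and microtubule proteins then build the spindle, kinetochores attach chromosomes to it, and the spindle checkpoint holds back the anaphase-promoting complex (APC/C) and its activator CDC20 until every chromosome is attached. The central spindle and an actomyosin ring then divide the cell. Most of these genes are transcribed in G2 and M phase through a shared route: the DREAM complex represses them in resting cells, and B-MYB with MuvB and then FOXM1 activate them, at promoters that carry a CHR element (cell cycle genes homology region) and CCAAT boxes bound by NF-Y. In bulk RNA, fewer cells in G2 and M phase and less RNA per such cell cannot be told apart.

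Promoters are shown first because the transcription route above acts there. As that route is known for most of these genes, the shares below are a description. RefSeq sequence (GRCh38.p14), from 250 bases before to 50 after an annotated start, was on hand for 28 of the 33 genes in 34 windows. TTTGAA or TTCGAA, the usual forms of the CHR element, was present on either strand in at least 1 window of 22 of these 28 genes (78.6%), against 15.2% of the 9144 tested symbols with a window and 16.4% of all 35116 windows. CCAAT, read on both strands, was present in 22 of 28 (78.6%), against 43.4% of tested symbols and 34.6% of all windows. In MKI67 the TTTGAA at position -29 shares a base with the CCAAT match at -24, counted from the annotated start as 0. Both were present in 18 of 28 (64.3%), against 6.57% of tested symbols and 6.38% of all windows. The CHR form CTTGAA was found in 3 of the 28 (10.7%), against 9.89% of tested symbols and 11.2% of all windows, CCNA2 among the 3. A match of letters is a description and not a binding site.

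The stretches from 150 bases before to 50 after the start are printed for 3 genes whose knockdown samples both lay below both controls (HMMR, CDC20 and CCNA2) and for 3 whose groups overlapped (CCNB2, PLK1 and PRC1). Capitals mark the CHR forms TTTGAA and TTCGAA, as well as CCAAT, on either strand; neighbouring matches run together.
HMMR, chr5:163460482-163460681, plus strand: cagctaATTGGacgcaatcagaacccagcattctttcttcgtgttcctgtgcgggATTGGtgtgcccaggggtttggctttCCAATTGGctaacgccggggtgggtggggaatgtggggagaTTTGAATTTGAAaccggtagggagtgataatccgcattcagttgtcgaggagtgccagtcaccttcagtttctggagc
CDC20, chr1:43358831-43359030, plus strand: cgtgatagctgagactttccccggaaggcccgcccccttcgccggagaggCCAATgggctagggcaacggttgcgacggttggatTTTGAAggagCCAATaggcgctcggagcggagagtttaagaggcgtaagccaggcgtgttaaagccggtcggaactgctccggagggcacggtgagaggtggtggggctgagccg
CCNA2, chr4:121823834-121824033, minus strand: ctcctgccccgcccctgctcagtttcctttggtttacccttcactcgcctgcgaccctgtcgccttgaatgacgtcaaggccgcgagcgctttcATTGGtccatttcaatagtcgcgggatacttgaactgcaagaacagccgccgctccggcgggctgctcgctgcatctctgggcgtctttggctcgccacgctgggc
CCNB2, chr15:59104996-59105195, plus strand: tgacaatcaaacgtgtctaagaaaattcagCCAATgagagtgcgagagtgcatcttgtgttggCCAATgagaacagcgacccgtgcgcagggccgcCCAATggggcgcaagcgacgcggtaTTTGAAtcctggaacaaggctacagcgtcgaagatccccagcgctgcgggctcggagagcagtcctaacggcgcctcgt
PLK1, chr16:23678739-23678938, plus strand: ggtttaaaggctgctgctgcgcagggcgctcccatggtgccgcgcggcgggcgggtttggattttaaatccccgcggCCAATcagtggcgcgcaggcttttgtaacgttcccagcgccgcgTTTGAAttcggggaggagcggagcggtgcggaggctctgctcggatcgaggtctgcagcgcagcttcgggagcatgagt
PRC1, chr15:90994486-90994685, minus strand: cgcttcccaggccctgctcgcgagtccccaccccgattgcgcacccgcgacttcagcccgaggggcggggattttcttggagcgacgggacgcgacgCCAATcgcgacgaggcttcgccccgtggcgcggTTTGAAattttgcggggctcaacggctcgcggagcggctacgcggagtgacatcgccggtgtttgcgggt

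**Figure D1:**
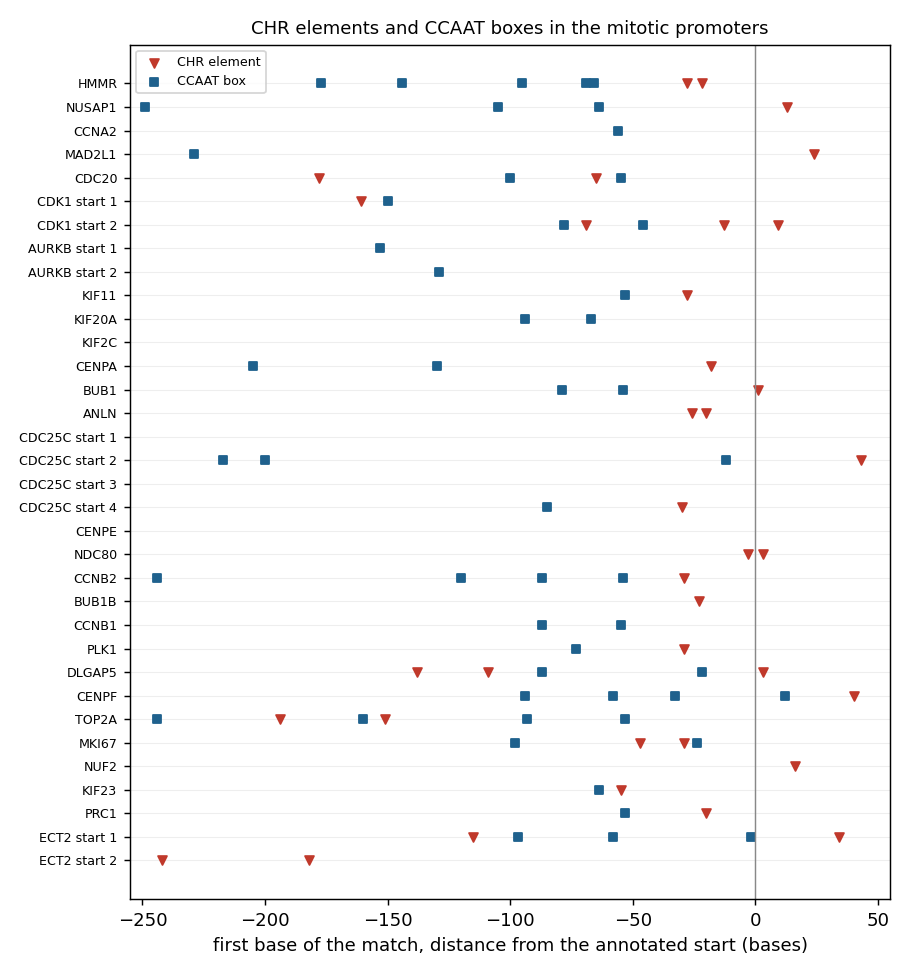
Positions of CHR elements in the forms TTTGAA and TTCGAA (triangles) and CCAAT boxes (squares) in each promoter window, as distance in bases of the first base of the match from the annotated start; rows run from the lowest log2 fold change (HMMR) to the highest with a window (ECT2), and genes with several annotated starts have a row each. Both elements occur from the top to the bottom of the order.

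In HMMR 2 adjoining CHR elements began at positions -28 and -22. In CCNB2 and PLK1 the CHR element began at -29 and in PRC1 at -20, with the nearest CCAAT box at -54, -73 and -53. These 3 genes, whose groups overlapped, carried the same pair of elements in the same order as HMMR. Not all genes with overlapping groups did: CENPE had neither element, and KIF20A had no TTTGAA or TTCGAA. Over the 28 genes, the 22 with TTTGAA or TTCGAA had a median log2 fold change of -0.21, and the 6 with neither had a median of -0.27. Those 6 include CCNA2 and KIF20A, whose windows hold the letters CTTGAA, in KIF20A on the reverse strand near the upstream end. These letters were about as common in tested symbols (9.89%) as in the 28 genes (10.7%). The 22 with a CCAAT box had a median of -0.24, and the 6 without had -0.22. The plot of element positions shows both elements throughout the order of fold changes. Whether promoter elements bear on the fold changes was not tested.

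HNRNPF, the targeted gene (ENSG00000169813.16, chr10:43881065-43904614, minus strand, GRCh37), stood at 18.7 and 16.6 FPKM in knockdown 1 and 2, against 154 and 153 FPKM in control 1 and 2. It was 8.71-fold lower, the only gene of the 13110 that passed in limma (log2 fold change -3.05, SE 0.0986, adjusted p = 0.0251). It did not pass when control 1 was left out (adjusted p = 0.262) or control 2 (adjusted p = 0.104). FPKM sums ranged from 391184 to 396135 per sample and 12664 to 13390 genes reached 1 FPKM. The table lists no fragment totals; if the commonest smallest increment among genes with a single exon is 1 fragment, each library held about 77400000 to 85000000. The 6 mammary epithelial markers were present in every sample, the lowest being TP63 at 19.5 FPKM in control 1, with summed levels of 8705 and 9830 FPKM in knockdown and 6759 and 10253 FPKM in the controls, most of it from keratin genes. Of these markers KRT17 (log2 fold change 0.67) and TP63 (0.37) had both knockdown samples above both controls, and EPCAM (-0.38) had both below; none passed in limma, and their part in the results below was not tested. Of the fibroblast markers only COL1A1 exceeded 1 FPKM (9.24 to 12.3 FPKM), and the endothelial markers reached at most 0.0438 FPKM. Of the leukocyte markers PTPRC reached at most 0.0384 FPKM and CD3E was listed at 0 in all 4 samples, while CD68, a lysosomal gene not limited to leukocytes, lay between 11.2 and 12.1 FPKM and CD14 between 0.535 and 1.43 FPKM.

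No mitotic gene passed the threshold in limma: 0 of 33 were called lower, against 0.00763% of tested genes, and 0 were called higher, against 0%. Adjusted p-values of the 33 lay between 0.465 and 0.999. As values, 31 of the 33 had a log2 fold change below 0, against 49.8% of all tested genes. Of the 33, 20 had both knockdown samples below both controls (60.6%), against 17.1% of tested genes. Both lay above both controls for 0 of the 33, against 17.5%. At an unadjusted p under 0.05 there were 6 lower genes (18.2%), against 3.02% of tested genes, and 0 higher genes, against 3.06%. The 6 were HMMR, CCNA2, MAD2L1, BIRC5, CDK1 and AURKB. The median log2 fold change of the 33 was -0.21, with quartiles of -0.27 and -0.13, while that of all tested genes was 0.0012 with quartiles of -0.11 and 0.13. The 33 were chosen with earlier results of these data known, so these counts and medians are a description.

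**Figure D2:**
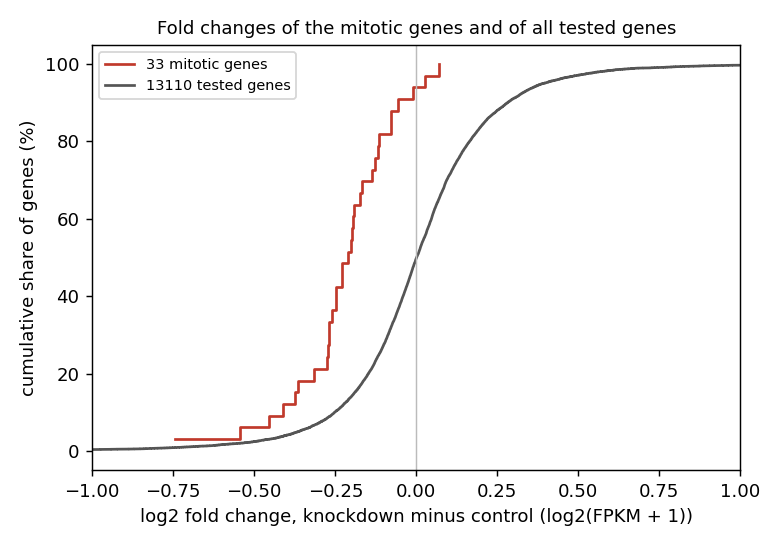
Cumulative share of genes (percent) by log2 fold change, knockdown minus control on the log2(FPKM + 1) scale, for the 33 mitotic genes (red) and the 13110 tested genes (grey; values beyond 1 in either direction are not drawn). The red curve crosses 50% near its median of -0.21 and spans -0.74 to 0.07.

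The difference was uneven between the 2 knockdown samples. Knockdown 1 lay below control 1 for 31 of the 33 genes and below control 2 for 31, with median log2 differences of -0.32 and -0.30. Knockdown 2 lay below control 1 for 27 and below control 2 for 26, with medians of -0.12 and -0.11. The median of all tested genes in the same 4 pairs was -0.00486, 0.11, -0.11 and 0.0045, so in the pair of knockdown 2 and control 1 the mitotic genes stood close to the median gene. With median-ratio scaling, which sets such shifts near 0, knockdown 1 lay below control 1 for 31 genes and below control 2 for 33, with medians of -0.31 and -0.42. Knockdown 2, scaled in this way, lay below control 2 for 26 genes with a median of -0.11, but below control 1 for 16 with a median of 0.0051. The count of genes with both knockdown samples below both controls was then 14, against 17.6% of tested genes; NUSAP1, CDC20, BUB1, ANLN, CCNB1, FOXM1 and NUF2 left it, and CENPE joined. As deposited, knockdown 2 lay above knockdown 1 for 28 of the 33 genes, against 33.6% of tested genes, and after the scaling for all 33. Without knockdown 1 the median log2 fold change of the 33 was -0.11, against -0.057 for all tested genes, and 2 genes had an unadjusted p under 0.05. Without knockdown 2 the median was -0.31, against 0.0609 for all tested genes. What set knockdown 1 apart was not tested.

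**Figure D3:**
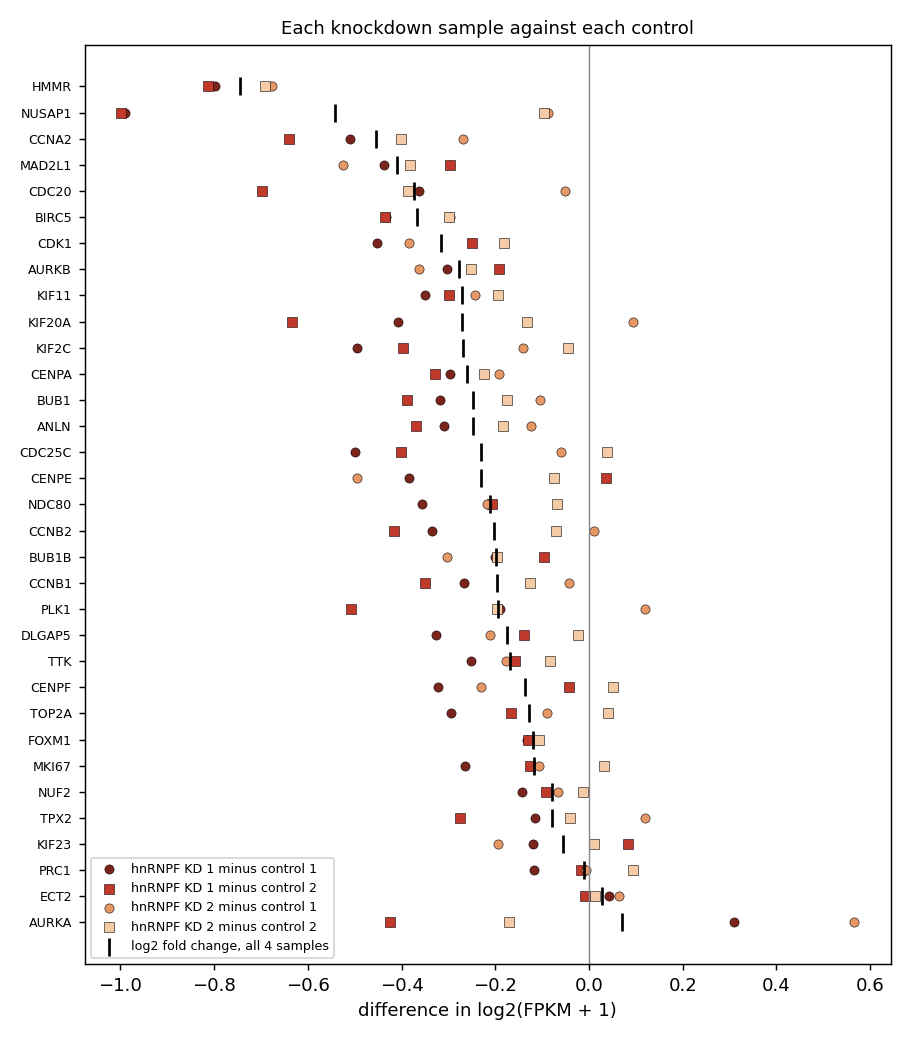
Difference in log2(FPKM + 1) between each knockdown sample and each control for the 33 genes, ordered by the log2 fold change over all 4 samples (black bars). The pairs with knockdown 1 (dark and mid red) reach -0.998 for NUSAP1, and the pairs with knockdown 2 (orange and pale) lie nearer 0 for most genes except HMMR.

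Spindle motors and microtubule proteins included the largest difference. HMMR (ENSG00000072571.19, chr5:162887209-162918951, plus strand, GRCh37) encodes a spindle protein that also binds hyaluronan. It was at 12.1 and 13.2 FPKM in knockdown 1 and 2, against 21.7 and 21.96 FPKM in control 1 and 2. The groups were far apart relative to the spread within each, 12.6 ± 0.814 FPKM in knockdown and 21.8 ± 0.167 FPKM in the controls (SD, n = 2 each), a 1.73-fold difference. Its log2 fold change was -0.74 (SE 0.108, 95% interval -1.03 to -0.46; limma, adjusted p = 0.465), and between -0.80 and -0.68 with any 1 sample left out. The antisense gene HMMR-AS1 was listed at 0 in all 4 samples.

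NUSAP1, which bundles spindle microtubules near chromosomes, was the gene with the widest spread in knockdown. It was at 19.99 and 38.2 FPKM in knockdown 1 and 2, against 40.7 and 40.9 FPKM in the controls. The difference therefore rested on knockdown 1, and the log2 fold change of -0.54 had a 95% interval of -1.37 to 0.29. KIF11, the motor that pushes spindle poles apart, was at 15.8 and 17.0 FPKM in knockdown, against 20.4 and 19.6 FPKM in the controls. KIF2C, a kinesin that depolymerizes microtubules to correct attachments, was at 30.3 and 38.9 FPKM in knockdown, against 43.0 and 40.2 FPKM in the controls. For both the groups did not overlap, and for KIF2C knockdown 2 came close to control 2. DLGAP5, a kinetochore fibre protein, was at 37.9 and 41.1 FPKM in knockdown, against 47.8 and 41.8 FPKM in the controls, again without overlap. TPX2, which activates Aurora A and nucleates microtubules, was at 57.0 and 67.3 FPKM in knockdown, against 61.8 and 69.2 FPKM in the controls. Its groups overlapped, with the number 1 samples below the number 2 samples in both. In all, 5 of these 6 genes had both knockdown samples below both controls, and the median log2 fold change was -0.27. That order held for 17.1% of tested genes, and with median-ratio scaling NUSAP1 left the count.

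Of the cyclins, CDK1 and their regulators, 4 of 6 had both knockdown samples below both controls, with a median log2 fold change of -0.22. The share of tested genes below both controls was 17.1%, and with median-ratio scaling CCNB1 and FOXM1 left the count. CCNA2 (ENSG00000145386.9, chr4:122737599-122745088, minus strand), which encodes cyclin A2 of S and G2 phase, was at 36.6 and 43.5 FPKM in knockdown, against 52.6 and 57.7 FPKM in the controls. This was 1.38-fold lower in knockdown, with a log2 fold change of -0.46 (SE 0.124, 95% interval -0.79 to -0.12; limma, adjusted p = 0.743). CDK1, the kinase of mitotic entry, was at 57.4 and 60.3 FPKM in knockdown, against 78.9 and 68.4 FPKM in the controls. Control 2 minus control 1 of CDK1 was -0.20 in log2. That was larger in size than the nearest pair across groups (knockdown 2 minus control 2, -0.18) but smaller than the log2 fold change of -0.32. CCNB1, the main mitotic cyclin, was at 97.9 and 115 FPKM in knockdown, against 118 and 125 FPKM in the controls. CCNB2, its Golgi-associated relative, was at 47.2 and 60.3 FPKM in knockdown, against 59.8 and 63.4 FPKM in the controls, so knockdown 2 lay inside the control range. CDC25C, a phosphatase that activates CDK1, was at 6.84 and 9.64 FPKM in knockdown, against 10.1 and 9.35 FPKM in the controls. Here also knockdown 1 alone stood below the others. FOXM1, a transcription factor for these genes, had replicates close to each other, at 15.3 and 15.6 FPKM in knockdown, against 16.9 and 16.9 FPKM in the controls. The groups did not overlap, but the log2 fold change was -0.12 with a 95% interval of -0.39 to 0.15.

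The spindle checkpoint genes with CDC20 were the group in which all 5 members had both knockdown samples below both controls. This held for the values as deposited, against 17.1% of tested genes. With median-ratio scaling CDC20 and BUB1 left that count. The median log2 fold change of the 5 was -0.25. MAD2L1 (ENSG00000164109.13, chr4:120976763-120988229, minus strand), the checkpoint protein that binds CDC20, was at 20.2 and 19.0 FPKM in knockdown, against 27.8 and 25.1 FPKM in the controls. It was 1.35-fold lower in knockdown, with a log2 fold change of -0.41 (SE 0.109, 95% interval -0.70 to -0.12; limma, adjusted p = 0.724), and here knockdown 2 was the lower of the 2. CDC20, the APC/C activator, was at 95.7 and 119 FPKM in knockdown, against 123 and 156 FPKM in the controls. The number 2 sample exceeded the number 1 sample in both groups, and knockdown 2 lay just under control 1. The checkpoint kinase gene BUB1 was at 37.1 and 43.1 FPKM in knockdown, against 46.5 and 48.9 FPKM in the controls. BUB1B, which encodes the checkpoint subunit BUBR1, was at 20.4 and 19.0 FPKM in knockdown, against 23.6 and 21.9 FPKM in the controls. TTK, the kinase MPS1 that starts checkpoint signalling, was at 16.5 and 17.4 FPKM in knockdown, against 19.8 and 18.5 FPKM in the controls. In all 3 each knockdown value was below each control value, by little in knockdown 2 of TTK and knockdown 1 of BUB1B.

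Aurora B and survivin are partners in the chromosomal passenger complex. AURKB was at 46.2 and 44.3 FPKM in knockdown, against 57.3 and 53.0 FPKM in the controls (1.22-fold lower in knockdown; limma, adjusted p = 0.805). BIRC5, which encodes survivin, was at 15.9 and 17.6 FPKM in knockdown, against 21.9 and 21.9 FPKM in the controls (1.30-fold lower in knockdown; limma, adjusted p = 0.77). Neither gene's groups overlapped. PLK1, a kinase of mitotic entry and spindle assembly, was at 43.5 and 54.1 FPKM in knockdown, against 49.7 and 62.2 FPKM in the controls. AURKA, the spindle pole kinase, was at 40.7 and 48.8 FPKM in knockdown, against 32.7 and 55.1 FPKM in the controls. Both knockdown values of AURKA lay between the 2 control values, which differed by 0.74 in log2, more than for any other of the 33 genes. Its log2 fold change of 0.07 had a 95% interval of -0.65 to 0.79 and was -0.30 without control 1 but 0.44 without control 2.

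Of the centromere and kinetochore genes, 3 of 5 had both knockdown samples below both controls, with a median log2 fold change of -0.21. Of all tested genes 17.1% had this order. With median-ratio scaling NUF2 left the count and CENPE joined it. CENPA, the histone H3 variant of centromeres, was at 13.8 and 14.9 FPKM in knockdown, against 17.2 and 17.6 FPKM in the controls. It overlaps SLC35F6 on the same strand, which held 12.5 and 12.7 FPKM in knockdown and 13.2 and 13.3 FPKM in the controls, so the split of fragments between them is uncertain. NDC80 and NUF2 encode 2 subunits of the complex that grips microtubule ends. NDC80 was at 17.4 and 19.2 FPKM in knockdown, against 22.5 and 20.2 FPKM in the controls. NUF2 was at 21.4 and 22.6 FPKM in knockdown, against 23.7 and 22.9 FPKM in the controls, with no overlap but knockdown 2 close to control 2. CENPE, a kinetochore motor, was at 12.05 and 11.1 FPKM in knockdown, against 16.0 and 11.7 FPKM in the controls. CENPF, a large kinetochore protein, was at 9.58 and 10.3 FPKM in knockdown, against 12.2 and 9.89 FPKM in the controls. In both, control 1 alone stood high, and the log2 fold change of CENPF was 0.0044 without it.

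The central spindle and cytokinesis genes stood nearest to no difference, with a median log2 fold change of -0.05. As deposited, 1 of 5 lay below both controls, against 17.1% of tested genes, and with median-ratio scaling it left the count. That one was ANLN, which encodes the actin-binding scaffold anillin, at 81.4 and 92.7 FPKM in knockdown, against 101 and 105 FPKM in the controls. KIF20A, a motor of the central spindle, was at 24.7 and 35.3 FPKM in knockdown, against 33.04 and 38.8 FPKM in the controls. KIF23, the motor subunit of centralspindlin, was at 32.2 and 30.6 FPKM in knockdown, against 35.1 and 30.3 FPKM in the controls. In KIF20A knockdown 1 alone was low, and in KIF23 both knockdown values lay between the controls. The microtubule bundler gene PRC1 was at 54.4 and 58.9 FPKM in knockdown, against 59.1 and 55.1 FPKM in the controls. ECT2, the exchange factor that activates RhoA at the division site, was at 31.8 and 32.3 FPKM in knockdown, against 30.8 and 32.0 FPKM in the controls. The 95% intervals of the log2 fold change were -0.27 to 0.25 for PRC1 and -0.21 to 0.27 for ECT2, which include the median of the 33. PRC1 changed sign with quantile normalization (0.014, against -0.011 as deposited). Whether this group differed from the other mitotic genes was not tested.

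The proliferation markers TOP2A and MKI67, which act on chromosome structure, had overlapping groups. TOP2A, a topoisomerase that untangles sister chromatids, was at 60.6 and 70.1 FPKM in knockdown, against 74.6 and 68.1 FPKM in the controls. MKI67, which encodes the Ki-67 antigen that coats mitotic chromosomes, was at 11.5 and 12.9 FPKM in knockdown, against 14.0 and 12.6 FPKM in the controls. In both genes knockdown 1 was the lowest sample and control 1 the highest. Summed over all 33 genes, the level was 1141 and 1313 FPKM in knockdown 1 and 2, against 1414 and 1461 FPKM in control 1 and 2.

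**Figure D4:**
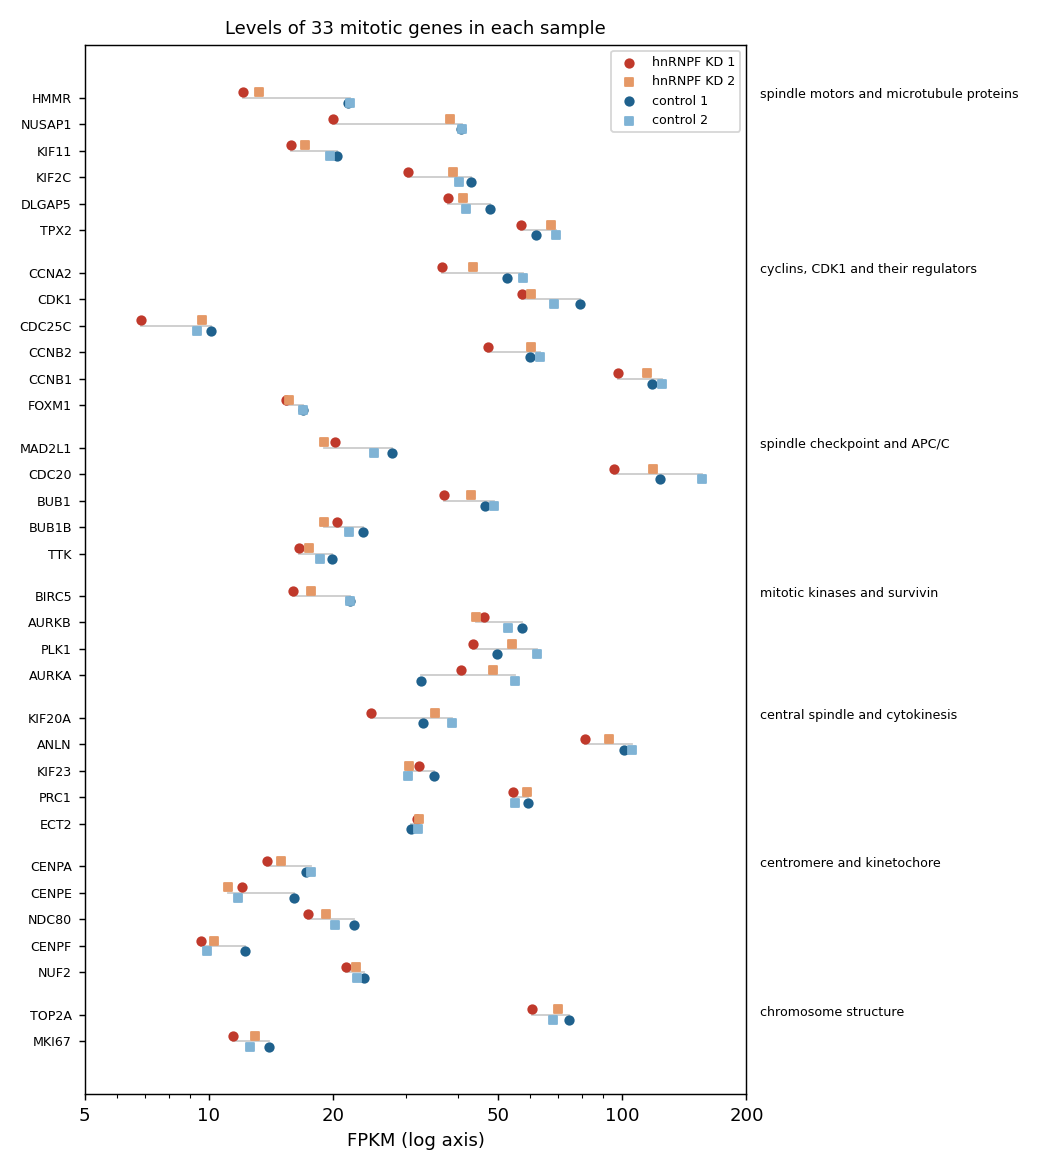
FPKM (log axis) of the 33 genes in each sample, by role, with knockdown 1 and 2 drawn above and control 1 and 2 below each line. Checkpoint genes have both knockdown points left of both control points in 5 of 5 cases, and central spindle genes in 1 of 5. Values are as deposited, and 17.1% of all tested genes have both knockdown samples below both controls.

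Replicate differences were of similar size to the group difference for many of these genes. The group difference exceeded the larger of the 2 replicate differences for 16 of the 33 genes, against 23.6% of tested genes. Knockdown 2 minus knockdown 1 had a median of 0.14 in log2 and reached 0.90 for NUSAP1. Control 2 minus control 1 had a median of -0.05 and ran from -0.42 for CENPE to 0.74 for AURKA. The medians of all tested genes were -0.094 in knockdown and -0.11 in the controls, so the 33 lay above them in both groups. With median-ratio scaling the medians of the 33 were 0.25 in knockdown and 0.078 in the controls. Control 2, scaled in this way, lay below control 1 for 8 of the 33, against 49.0% of tested genes. As deposited, the number 2 sample was the higher in both groups for 15 of the 33.

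**Figure D5:**
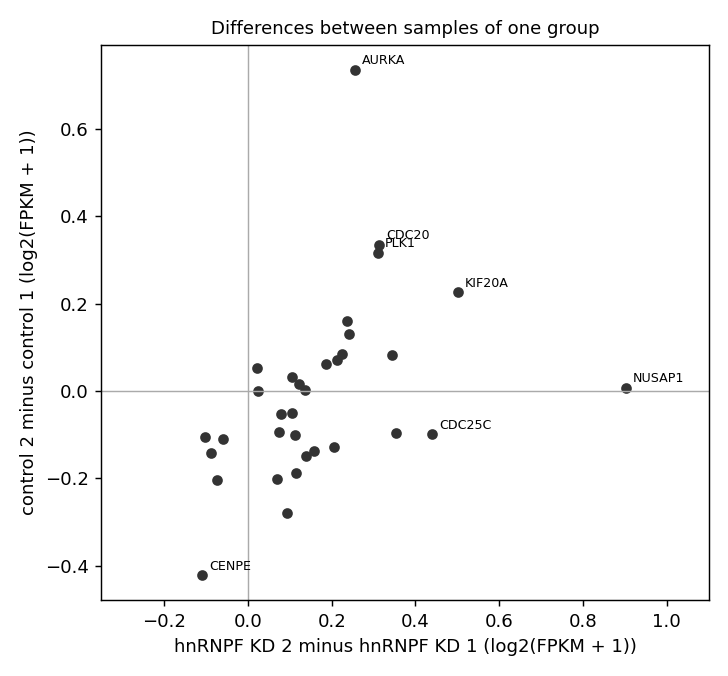
Difference between the 2 samples of each group in log2(FPKM + 1), knockdown 2 minus knockdown 1 across and control 2 minus control 1 upward, with 1 point per gene. Points lie right of 0 for 28 genes, and above 0 for 15.

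Other genes of the same machinery, listed by role but with earlier results of these data known, gave 0 calls in limma. Over 4 lists of other kinetochore and passenger, APC/C, condensin and cohesin, and spindle and cytokinesis genes, 97 were tested. Of these, 77 had a log2 fold change below 0, against 49.8% of all tested genes, and the median was -0.12. The knockdown samples were both below the controls in 41 (42.3%, against 17.1% of tested genes) and both above them in 2 (17.5% of tested genes). At an unadjusted p under 0.05, 7 were lower (3.02% of tested genes) and 0 higher (3.06%). Knockdown 2 lay above knockdown 1 for 41 of these 97 genes, against 33.6% of tested genes. These lists were not compared under median-ratio scaling. Of the 34 kinetochore, checkpoint and passenger genes 29 were below 0 with a median of -0.12, and the smallest p values belonged to CENPN, SKA2, ZWILCH and MIS12. CENPN, which binds CENP-A nucleosomes, was at 17.0 and 18.4 FPKM in knockdown, against 25.5 and 23.8 FPKM in the controls. Of the 25 other spindle and cytokinesis genes 23 were below 0 with a median of -0.17, led by PBK, DEPDC1, NEK2 and KIF22. PBK, a mitotic kinase, was at 23.0 and 26.1 FPKM in knockdown, against 38.3 and 37.6 FPKM in the controls (limma, adjusted p = 0.54). DEPDC1 was at 7.88 and 7.23 FPKM in knockdown, against 13.2 and 11.0 FPKM in the controls. Both genes had groups that did not overlap, and both differences were larger than those of all the 33 but HMMR.

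Of the 18 condensin and cohesin genes 14 were below 0, against 49.8% of tested genes. Their median was -0.12, and NCAPG2, NCAPH, CDCA5 and SMC1A had the smallest p. The condensin II subunit gene NCAPG2 was at 25.3 and 21.7 FPKM in knockdown, against 31.2 and 30.4 FPKM in the controls. The 20 APC/C genes were divided, 11 below 0 (49.8% of tested genes) with a median of -0.01. Here PTTG1, ANAPC15, ESPL1 and ANAPC1 had the smallest p. PTTG1 encodes securin, the separase inhibitor that the APC/C destroys, and was at 103 and 114 FPKM in knockdown, against 133 and 127 FPKM in the controls. ESPL1, separase itself, was at 8.32 and 7.83 FPKM in knockdown, against 9.72 and 9.54 FPKM in the controls. APC/C subunit ANAPC15 was on the other side, at 22.5 and 17.2 FPKM in knockdown, against 15.04 and 15.1 FPKM in the controls.

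The regulators of mitotic transcription had 11 of 15 genes below 0, against 49.8% of tested genes, and a median of -0.05. At an unadjusted p under 0.05 there were 0 in either direction, against 3.02% lower and 3.06% higher of tested genes. Both knockdown samples lay below both controls in 4 of the 15 (17.1% of tested genes) and above them in 2 (17.5%). The 4 genes of smallest p follow. LIN54, the MuvB subunit that contacts CHR elements, was at 3.93 and 3.59 FPKM in knockdown, against 6.12 and 4.69 FPKM in the controls. NFYA, the subunit of NF-Y that reads CCAAT, was at 11.0 and 11.2 FPKM in knockdown, against 12.7 and 12.6 FPKM in the controls. For both, each knockdown value lay below each control value. E2F5, a DREAM subunit, was at 6.52 and 5.70 FPKM in knockdown, against 8.19 and 7.05 FPKM in the controls. TFDP2, a partner of E2F proteins, was at 14.3 and 14.7 FPKM in knockdown, against 13.6 and 6.09 FPKM in the controls. E2F5 had both knockdown samples below both controls, and TFDP2 had both above, with control 2 alone far from the rest.

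Among inhibitors of cyclin-dependent kinases and of CDK1, 8 of 9 were tested, with 5 below 0, against 49.8% of tested genes. WEE1, the kinase that places the inhibitory phosphate on CDK1, was at 10.7 and 13.0 FPKM in knockdown, against 8.74 and 8.29 FPKM in the controls (limma, adjusted p = 0.805). CDKN1A, the p53-induced inhibitor p21, was at 111 and 234 FPKM in knockdown, against 204 and 289 FPKM in the controls. Its groups overlapped, with the lowest value in knockdown 1, and any relation to the mitotic genes was not tested. CDKN2A was at 37.1 and 33.1 FPKM in knockdown, against 45.0 and 38.8 FPKM in the controls. PKMYT1, a CDK1-inhibiting kinase, was at 26.2 and 24.95 FPKM in knockdown, against 27.9 and 27.2 FPKM in the controls. The 9 G1 cyclins and kinases included genes on both sides, 3 below 0 (49.8% of tested genes) and a median of 0.05. CCND2 was at 24.2 and 20.7 FPKM in knockdown, against 33.9 and 31.4 FPKM in the controls. CDK4, a partner of D-type cyclins, was at 58.4 and 57.4 FPKM in knockdown, against 74.5 and 68.6 FPKM in the controls. Both were lower in each knockdown sample than in each control, and the next 2 were higher. CCNE1, the cyclin of S-phase entry, was at 7.91 and 7.54 FPKM in knockdown, against 4.69 and 5.50 FPKM in the controls. CDK6, the relative of CDK4, was at 23.2 and 19.4 FPKM in knockdown, against 15.6 and 15.8 FPKM in the controls. These 4 were named because they had the smallest p of the 9. None of them had overlapping groups, and their adjusted p-values in limma were 0.629 or more.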

How the data were processed

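The deposited table holds FPKM, which the authors scaled for length and depth, per the file headers in 1 column per sample. Per the submitters' processing notes, the build was GRCh37 and the tools include Cuffdiff 2.2.1 and STAR 2.5.3a, with no roles stated; the annotation is not given in the sources used here. Where genes overlap or resemble each other, FPKM depends on how fragments were shared: 6 of the 33 genes overlap a gene on the same strand, and in 2 cases that gene reached 1 FPKM. Gene FPKM does not separate isoforms. Low values of single-exon genes (GENCODE 29 lengths of at least 500 bp) were multiples of the lowest step within 0.02 in 38.2% to 41.8% of cases, which is too few to recover reads for a count test.

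Groups came from the sample titles. Genes averaging 1 FPKM or more were compared with limma 3.58.1 (R 4.3.3) on log2(FPKM + 1), which understates changes of low genes, with an intensity trend, no covariate, 2 residual degrees of freedom, two-sided, with Benjamini-Hochberg adjustment over all 13110 genes at 0.05. An exact permutation test of 2 against 2 cannot go below 0.333, so none was made. Fold values are ratios of mean FPKM. The fit was checked on simulated data with independent errors and changes larger than those of any of the 33 genes. Recovery of changes as small as theirs was not tested. The 33 genes and all lists were chosen with earlier results of these data known; the text names the 33, HNRNPF and up to 4 genes of smallest p per further list, DREAM-route and marker genes included. Of the further symbols 5 matched no row and are not analysed here. Alternatives were pseudocounts of 0.1 and 0.5, no filter or a mean of 5 FPKM, quantile and median-ratio scaling, no trend, robust fitting, a replicate block and leaving out each sample. Cross pairs under median-ratio scaling were added after seeing the data. Python 3.11.15 was used for the rest.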

Additional observations from a re-analysis of the deposited data

How the results depend on the processing

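No member of the mitotic set was called under any alternative run, and HMMR had the smallest adjusted p among them, 0.271 with the replicate number as a block (limma; 0.271 to 0.976 over the alternatives for HMMR). Genes called lower over all genes numbered 1 as reported and 0 with no filter, with no intensity trend, with the replicate block, or without either control; genes called higher numbered 0 to 1 with a sample left out. HNRNPF kept a log2 fold change of -3.05 in those first 3 settings (adjusted p = 0.259, 0.0995 and 0.164) and -3.13 to -2.98 with a sample left out. The count of lower genes at an unadjusted p under 0.05 was 6 as reported, 3 with median-ratio scaling, 11 with the replicate block and 2 to 8 with a sample left out. The count with both knockdown samples below both controls was 19 with quantile normalization, 14 with median-ratio scaling and 21 to 29 with a sample left out, which leaves fewer pairs to satisfy (21 without knockdown 1, 29 without knockdown 2, 25 without control 1 and 27 without control 2, against 40.0%, 25.3%, 25.4% and 43.3% of tested genes). The median log2 fold change of the 33 was -0.31 to -0.11 with a sample left out and -0.22 to -0.19 under the other alternatives. PRC1 turned sign with quantile normalization (0.014). With a sample left out, sign also turned for AURKA (-0.30 to 0.44), CENPF (-0.28 to 0.0044), TPX2 (-0.20 to 0.040), PRC1 (-0.067 to 0.045) and KIF23 (-0.16 to 0.047); the causes were not tested. The labels do not say that samples of the same number belong together. Across tested genes, number 2 minus number 1 correlated at 0.39 between the groups. The block gave 1790 genes at an unadjusted p under 0.05 in limma, against 797 without it. Median-ratio factors were 1.045 and 1.051 for knockdown 1 and control 1, against 0.961 and 0.957 for knockdown 2 and control 2. What samples of the same number share was not tested. Fragment totals are estimates, so counting error behind single values is unknown.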
